A study of Mus musculus with 49 samples.

Results

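The 9 genes described here encode cell-surface receptors that bind and internalise particles, modified lipoproteins and cell debris: Marco, Msr1, Colec12, Cd36, Scarb1, Mrc1, Cd163, Stab1 and Stab2. They were chosen by name, and all 9 were found among the 55487 genes of the deposited count table. The study asked where an intravenously injected iron oxide nanoparticle goes in tumor-bearing mice and what it does there. The mice were HuHER2 transgenic animals with palpable mammary tumors. Palpation began at 7 months of age, and neither the promoter of the transgene nor the age at sampling is given in the sources used here.

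The first group of libraries came from nanoparticle-associated cells (NA) of 3 mice injected once with BP, the nanoparticle, at 5 mg Fe per mouse. These cells were released by digesting a portion of each organ and were pulled out with a magnet. There were 13 such libraries, 3 for each of liver, bone marrow, tumor and spleen and a single one for lymph node. The second group was whole, undigested tissue (bulk) from 6 organs of the same 3 BP mice, and the third was bulk tissue of the same 6 organs from 3 mice injected with PBS, which made 36 bulk libraries. BP is known here only by its code. The submitters' design text places sampling at 7 days after injection and the treatment notes of the samples put part of it at 31 days, so the interval is uncertain. Each comparison of NA with bulk also compares digested and sorted cells with intact tissue, and the design cannot separate the sort from the digestion.

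Scavenger receptors recognise negatively charged or sugar-bearing surfaces, which is why they are studied as entry routes for injected colloids. The class A receptors Marco, Msr1 and Colec12 carry a collagen-like stalk, and Marco marks macrophages that face blood or air. The class B receptors Cd36 and Scarb1 move lipid, Cd36 as a fatty acid and thrombospondin receptor of adipocytes, microvessels and macrophages, and Scarb1 as the high-density lipoprotein receptor of hepatocytes. Mrc1, the mannose receptor, and the stabilins Stab1 and Stab2 are endocytic receptors of the liver's sinusoidal endothelium, which clears soluble and colloidal waste from blood beside the resident macrophages called Kupffer cells. Cd163 takes up haemoglobin bound to haptoglobin and marks tissue macrophages.

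In the mm10 annotation (GENCODE M21) Marco lies at chr1:120474538-120505024 on the minus strand, Msr1 at chr8:39581685-39642673 (minus), Cd36 at chr5:17781690-17888801 (minus), Scarb1 at chr5:125277087-125341094 (minus) and Mrc1 at chr2:14229392-14332057 (plus). Cd163 lies at chr6:124304656-124330527 (plus), Stab1 at chr14:31139013-31168641 (minus) and Stab2 at chr10:86841198-87008025 (minus). All 9 genes code for protein. Exons of Stab1 overlap those of Nt5dc2 on the other strand and exons of Stab2 overlap those of Gm16268, and the strand setting of the counting is not given in the sources used here, so reads could not be assigned to 1 partner with certainty at the overlaps.

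Promoters are printed for the 3 receptors with the largest difference between NA liver and bulk liver, Stab1, Stab2 and Mrc1, and for Marco, the first of the 9 per kilobase in bulk liver of BP mice. Each runs 5′ to 3′ on the strand of its gene from 250 bases before to 50 bases after the RefSeq start (GRCm38.p6): chr14:31168592-31168891 (minus) for Stab1, chr10:87007893-87008192 (minus) for Stab2, chr2:14229164-14229463 (plus) for Mrc1 and chr1:120504975-120505274 (minus) for Marco. Capitals mark matches, on either strand, to GAGGAAG (a purine box of the PU.1 type) or TGCTGA (a MAF half-site).
Stab1: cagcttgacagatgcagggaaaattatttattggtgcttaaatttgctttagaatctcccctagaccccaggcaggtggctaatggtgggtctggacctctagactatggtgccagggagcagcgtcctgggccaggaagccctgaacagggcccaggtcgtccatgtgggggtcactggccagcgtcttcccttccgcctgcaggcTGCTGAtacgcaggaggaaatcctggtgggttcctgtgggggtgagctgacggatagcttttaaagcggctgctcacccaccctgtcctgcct
Stab2: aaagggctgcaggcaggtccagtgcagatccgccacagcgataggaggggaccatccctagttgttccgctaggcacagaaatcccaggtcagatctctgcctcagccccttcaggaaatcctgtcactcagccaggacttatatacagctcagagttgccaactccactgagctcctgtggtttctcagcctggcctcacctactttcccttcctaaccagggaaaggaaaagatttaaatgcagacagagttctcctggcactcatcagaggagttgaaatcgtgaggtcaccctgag
Mrc1: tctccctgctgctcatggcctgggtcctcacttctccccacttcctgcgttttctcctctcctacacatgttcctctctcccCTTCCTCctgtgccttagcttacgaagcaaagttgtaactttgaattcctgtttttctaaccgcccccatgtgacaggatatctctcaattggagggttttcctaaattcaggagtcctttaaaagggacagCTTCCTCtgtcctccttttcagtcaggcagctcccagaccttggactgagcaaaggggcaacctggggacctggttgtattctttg
Marco: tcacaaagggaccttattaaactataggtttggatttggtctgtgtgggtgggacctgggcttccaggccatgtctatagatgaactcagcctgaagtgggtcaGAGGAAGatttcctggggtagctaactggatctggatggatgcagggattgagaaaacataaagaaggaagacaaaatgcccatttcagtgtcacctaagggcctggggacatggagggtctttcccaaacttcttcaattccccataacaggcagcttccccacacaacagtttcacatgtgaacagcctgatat
Of the 9 genes, 6 had a promoter in the RefSeq table. GAGGAAG or its complement was found in Marco, 146 bases before the start, and at 2 places in Mrc1, 168 and 36 bases before it, and 13.6% of 32851 promoters of the same length hold it. TGCTGA or its complement was found in Stab1, 43 bases before the start, and in Cd36, 11 bases before it, and 19.5% of the promoters hold it. CACGTG (7.15% of promoters) and AGATAA (11.2%) were in none of the 6, and no matches overlapped. A match is a description of these letters.

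Levels are given as CPM (counts per library total, scaled to a common size), with the library total multiplied by its TMM factor over all 49 libraries. The totals ran from 9362264 to 19734849 counts and the factors from 0.2998, in an NA liver library, to 1.556, so CPM of liver and above all of NA liver are larger here than on library totals alone. Mitochondrial genes took 48.2% to 57.2% of the counts in NA liver. The least separated replicate pair of any group differed by 9.17 chi-square units per degree of freedom, so every library was counted as a sample of its own. In bulk tissue fewer cells of a type and less RNA per cell cannot be told apart. Fold changes come from edgeR's quasi-likelihood test with Benjamini-Hochberg adjustment over all genes tested, and a gene is called at an adjusted p under 0.05. The labels number each mouse but do not say that the mice were handled separately, so p-values measure the spread between these libraries.

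In PBS mice the receptors divided the organs between them, and liver had the most receptors called higher. Their summed level per kilobase of exon was 140 CPM per kb in liver, 178 in lymph node, 162 in lung and 152 in spleen. It was 67.0 CPM per kb in tumor and 41.9 CPM per kb in marrow. Against the mean of the other 5 organs, 8 of the 9 were called in liver, all higher (64.3% of all genes tested were called there in either direction and 29.0% higher). Here and below a mean over other organs is taken over log2 levels, so an organ almost without a transcript lowers it strongly. A receptor called higher in an organ can thus lie below another organ. Stab2 was the most restricted, at 89.4, 83.4 and 70.6 CPM in the 3 livers and 28.7, 28.1 and 31.9 CPM in the 3 spleens. In marrow it averaged 8.03 CPM and in lymph node 5.68 CPM, in lung 0.469 CPM, and each PBS tumor held 1 count. Its liver level exceeded the other organs by 5.26 ± 0.24 on the log2 scale (SE, adjusted p = 5.35e-12). Livers, spleens and the other organs did not overlap, and only marrow and lymph node overlapped with each other.

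Cd163 was the other receptor nearly limited to liver, with 32.3, 25.0 and 21.3 CPM in liver against means of 1.51 CPM in lung to 4.64 CPM in lymph node (log2 fold change 3.22 ± 0.34, adjusted p = 3.81e-07). Scarb1 had 279, 275 and 231 CPM in liver, above every other organ, and its liver excess was 2.25 ± 0.17 (adjusted p = 6.21e-09). Msr1 had 33.4, 33.3 and 38.6 CPM in liver and at most 22.2 CPM in any other PBS library. Mrc1 (143, 128 and 107 CPM) and Stab1 (94.6, 87.2 and 73.4 CPM) were also called higher in liver, but Stab1 overlapped with lung (80.7, 39.8 and 75.4 CPM). On library totals alone the liver excess of Mrc1 (0.79, adjusted p = 0.0801) and of Stab1 (0.74, adjusted p = 0.0607) was not called and Cd36 was called lower in liver (-1.87, adjusted p = 0.0165), where the median of all genes moved by -1.01 and 18.9% of called genes were higher in place of 45.1%.

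Spleen was Marco's organ. PBS spleens had 123, 184 and 238 CPM, lymph nodes 68.4, 60.5 and 91.9 CPM, livers 29.2, 35.0 and 61.0 CPM and lungs 1.83, 7.75 and 5.45 CPM, and tumors and marrow averaged under 1 CPM. The spleens were apart from the nodes, and nodes and livers overlapped by 1 library. Spleen exceeded the mean of the other organs by 4.85 ± 0.38 (adjusted p = 3.74e-08) and lymph node by 3.26 ± 0.39 (adjusted p = 7.11e-06). In spleen 5 of 9 receptors were called, Marco and Stab2 higher and Msr1, Scarb1 and Stab1 lower (47.0% of genes called), and in lymph node 3, Marco and Cd36 higher and Scarb1 lower (33.8%). Without mouse 3, Msr1 (adjusted p = 0.0812) and Stab1 (0.185) lost their call in spleen, and without mouse 2 Cd36 lost it in lymph node (0.491). Without mouse 1, Colec12 (0.66, adjusted p = 0.00767) and Mrc1 (0.86, adjusted p = 0.00550) were called higher in spleen and Colec12 in lymph node (0.48, adjusted p = 0.0485). On library totals, where the median of all genes moved by 0.32 in spleen and 71.8% of called genes were higher in place of 53.8%, Msr1 (0.0504) and Stab1 (0.0806) were not called there, and Stab2 was called higher in lymph node (0.86, adjusted p = 0.0474).

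In lung Cd36 was the most abundant of the 9, and Colec12, Cd36 and Stab1 were higher than the mean of the other organs. Stab1 averaged 65.3 CPM in PBS lungs and 85.1 CPM in PBS livers. Lung overlapped with lymph node in Cd36 and with liver in Colec12. Cd36 had 439, 362 and 560 CPM in PBS lungs, and Colec12, a collectin of endothelium and stroma, had 93.2, 74.6 and 80.9 CPM, close to the 96.8, 73.1 and 64.3 CPM of liver. In lung 7 receptors were called (50.6% of genes), with Colec12, Cd36 and Stab1 higher and Marco, Msr1, Cd163 and Stab2 lower. Several of these rested on single mice: the Marco call was lost without mouse 1 (adjusted p = 0.0909) or mouse 3 (0.186), Msr1 without mouse 3 (0.0696), Cd36 without mouse 1 (0.0702) or mouse 2 (0.0541), and Cd163 without mouse 2 (0.0802). On library totals (median moved by 0.31, 77.5% of called genes higher in place of 57.6%) Marco (0.0909) and Msr1 (0.0725) lost their calls. With the mouse as a block Scarb1 was called lower in lung as well (-0.48, adjusted p = 0.0296). PBS mouse 1 had the lowest lung levels of Marco (1.83 CPM), Msr1 (2.89 CPM) and Mrc1 (30.5 CPM), and its macrophage markers summed to 2010 CPM where those of PBS mice 2 and 3 summed to 5596 and 4519 CPM. Without mouse 1, Mrc1 was called higher in lung (1.20, adjusted p = 0.000554).

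Tumor and marrow held few of these transcripts. In PBS tumors 6 receptors were called (50.7% of genes), of which Marco, Colec12, Mrc1, Cd163 and Stab2 were lower and Scarb1 was higher, at 76.6, 116 and 92.0 CPM (log2 fold change 0.55 ± 0.19, adjusted p = 0.0239). Mrc1, Cd163 and Colec12 were highest in the tumor of PBS mouse 1, at 41.8, 3.54 and 17.4 CPM, whose macrophage markers summed to 1532 CPM, against 389 and 825 CPM in the tumors of mice 2 and 3. Its neutrophil markers summed to 19614 CPM, against 26.5 and 263 CPM. The Scarb1 call was lost without mouse 2 (adjusted p = 0.327), and those of Mrc1 and Cd163 were lost without mouse 2 (0.218 and 0.194) or mouse 3 (0.246 and 0.223). Stab1 was called higher in tumor without mouse 2 (1.05, adjusted p = 0.00620), with no filter (0.79, adjusted p = 0.0309) and on library totals (0.98, adjusted p = 0.0224), and Cd36 lower without mouse 3 (-2.96, adjusted p = 0.00116). In marrow 4 receptors were called (57.9% of genes), Marco, Colec12 and Stab1 lower and Stab2 higher, the last with 12.3, 3.57 and 8.21 CPM and not without mouse 1 (adjusted p = 0.0687). Stab2 in marrow lay below liver and spleen (means of 81.1 and 29.6 CPM) and above lung and tumor (0.469 and 0.0606 CPM). Cd36 was called lower in marrow by DESeq2 (-1.39, adjusted p = 0.0366) and with no filter (-1.43, adjusted p = 0.0468).

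**Figure D1:**
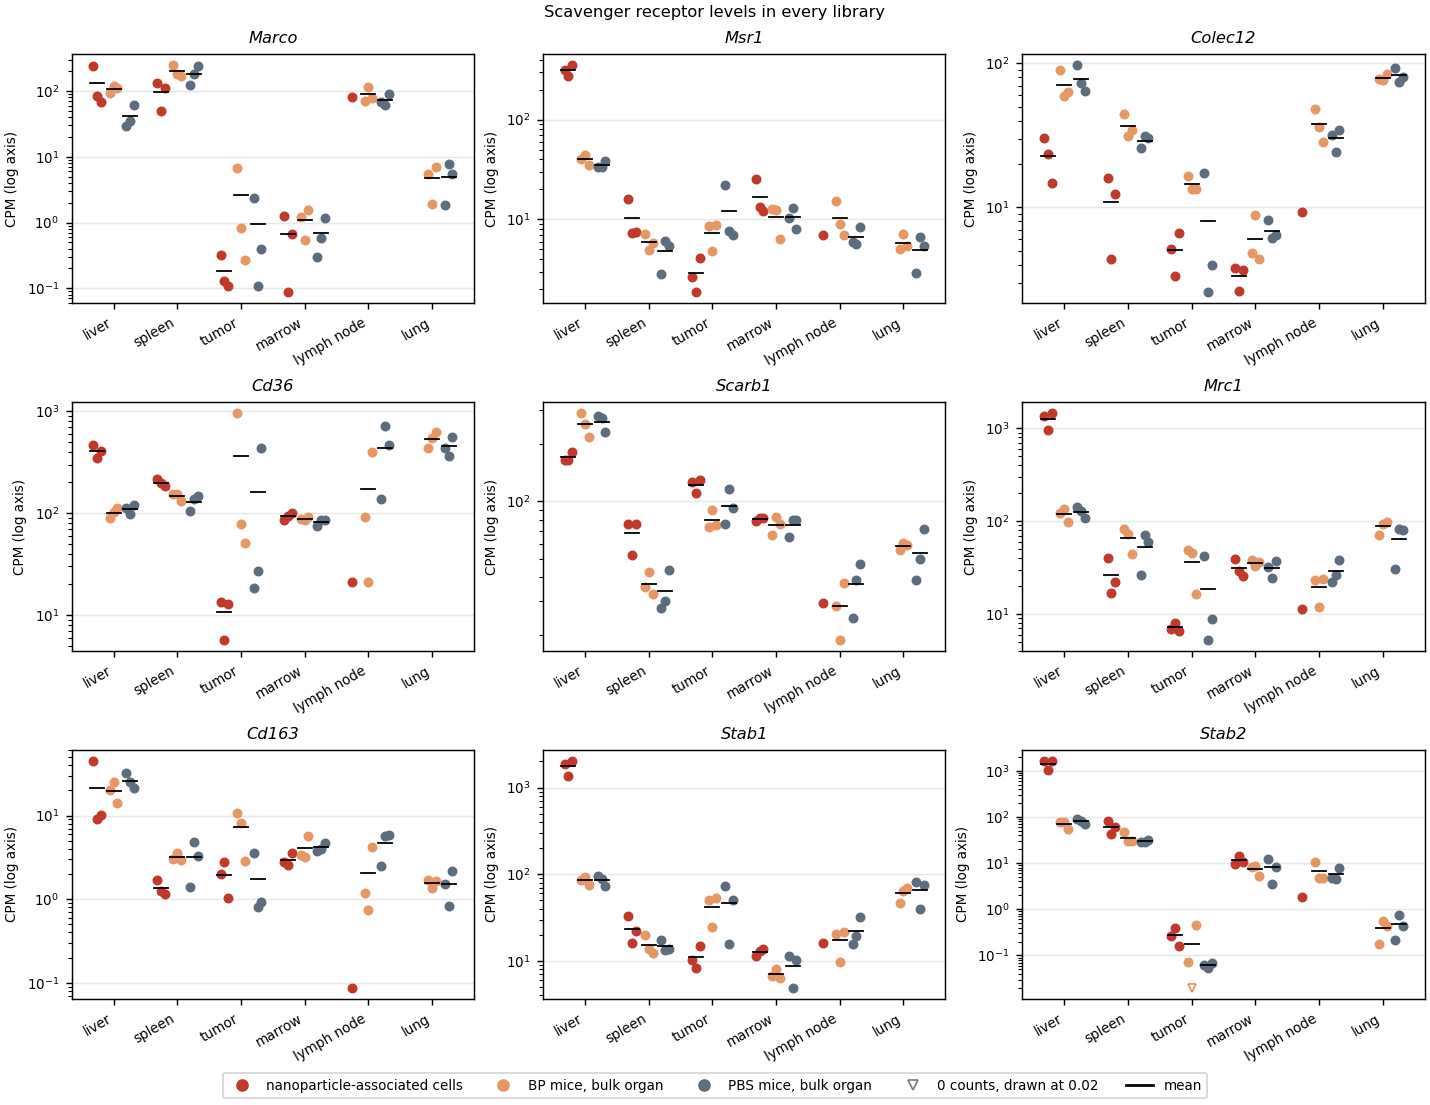
CPM of each receptor on a log axis, by organ, in libraries of nanoparticle-associated cells (red), bulk organs of BP mice (orange) and bulk organs of PBS mice (grey). Each point is 1 library and black bars are means. Stab1, Stab2, Mrc1 and Msr1 in NA liver stand above every other library of the same gene, with 1348 to 2020 CPM for Stab1.

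In nanoparticle-associated cells of the liver the stabilins and the mannose receptor were 11.7 to 23.0 times as high as in bulk liver of the same mice. Stab1 had 1893, 1348 and 2020 CPM in NA liver, against 86.2, 93.6 and 75.9 CPM in bulk liver of the BP mice. Stab2 had 1616, 1031 and 1602 CPM in NA liver, against 77.4, 79.3 and 53.8 CPM in bulk. Mrc1 had 1342, 962 and 1453 CPM in NA liver, against 124, 135 and 98.3 CPM in bulk. In all 3 genes every NA library lay above every bulk library, and NA mouse 2 was the lowest of the NA libraries. NA and bulk liver did not overlap in 78.6% of all genes tested, and in 7 of the 9 receptors. The log2 fold changes were 4.52 ± 0.23 for Stab1 (SE, n = 3 and 3, edgeR adjusted p = 3.72e-07), 4.49 ± 0.27 for Stab2 (adjusted p = 7.66e-07) and 3.55 ± 0.23 for Mrc1 (adjusted p = 1.13e-06).

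Msr1 and Cd36 also rose in NA liver. Msr1, the class A receptor first known from uptake of modified low-density lipoprotein, had 317, 272 and 350 CPM in NA liver, against 40.7, 44.5 and 35.5 CPM in bulk liver (3.12 ± 0.16, adjusted p = 3.72e-07). Cd36 had 467, 346 and 409 CPM, against 89.7, 102 and 112 CPM in bulk (2.17 ± 0.16, adjusted p = 2.41e-06). Colec12 fell, with 30.2, 23.4 and 14.8 CPM in NA liver and 89.6, 59.6 and 63.6 CPM in bulk (-1.46 ± 0.25, adjusted p = 0.000509). Scarb1, with 165, 164 and 182 CPM in NA liver and 290, 255 and 219 CPM in bulk, fell by 0.42 on the log2 scale (SE 0.14, adjusted p = 0.0233), a call that was lost with the mouse as a block (adjusted p = 0.0501) and without NA mouse 1 (0.0643), bulk mouse 1 (0.0866) or bulk mouse 2 (0.0517).

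Thus 5 receptors were called higher and 2 lower in NA liver. Over all 13247 genes tested 74.8% were called, 37.3% higher and 37.5% lower, so the count by itself does not set the receptors apart, and their median absolute log2 fold change was 2.17 where that of all genes was 1.11. The calls on Stab1, Stab2, Mrc1, Msr1, Cd36 and Colec12 held in all alternatives run for this comparison. On library totals alone the median of all genes moved by -0.81 and the share of called genes that were higher was 28.0% in place of 49.9%. The 5 higher receptors were still called on that scale, with Stab1 at 3.73, Stab2 at 3.71, Mrc1 at 2.76, Msr1 at 2.31 and Cd36 at 1.39.

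Marco and Cd163, which mark macrophages, did not follow the stabilins, whereas Cd36, also a receptor of macrophages, and Msr1 rose as given above. Marco had 240, 83.6 and 68.9 CPM in NA liver, against 92.3, 121 and 113 CPM in bulk liver (0.42 ± 0.40, adjusted p = 0.353). Cd163 had 44.8, 9.20 and 10.2 CPM in NA liver, against 20.4, 24.9 and 14.3 CPM in bulk (0.30 ± 0.53, adjusted p = 0.621). In both genes NA mouse 1 stood above the bulk libraries and the other NA libraries stood below them. Without NA mouse 1 Cd163 was called lower (-0.86, adjusted p = 0.0198), and Marco was not called (adjusted p = 0.105), at -0.33. On library totals both were also below 0 and not called, Marco at -0.23 and Cd163 at -0.34. The same library had the most macrophage RNA of the NA livers: its 12 macrophage markers summed to 3695 CPM, against 1889 and 1773 CPM in the NA livers of mice 2 and 3, and its 10 Kupffer and red pulp markers summed to 3842 CPM, against 1754 and 1848 CPM.

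The markers of the liver's cell types moved with these receptors. All 9 sinusoidal endothelium markers tested were called higher in NA liver (median log2 fold change 4.03), among them Dnase1l3 at 1788 ± 294 CPM in NA liver and 122 ± 15.5 CPM in bulk (SD, n = 3 each) and Clec4g at 2146 ± 27.7 CPM and 155 ± 16.5 CPM. The summed level of these 9 was 7636 to 9821 CPM in NA liver and 533 to 660 CPM in bulk. All 10 general endothelial markers were called higher, and 9 of 10 hepatocyte markers were called lower, with sums of 31677 to 99454 CPM in NA liver and 186466 to 226903 CPM in bulk. Of the 12 macrophage markers 7 were called higher (median 0.87), with sums of 1773 to 3695 CPM in NA liver and 1406 to 1611 CPM in bulk. Of the Kupffer and red pulp markers 3 of 10 were higher and 1 lower, with sums of 1754 to 3842 CPM in NA liver and 2240 to 2996 CPM in bulk. The 10 dissociation response genes, which digestion of tissue is known to induce, were all called higher (median 6.52, sums of 17464 to 21088 CPM in NA liver and 164 to 255 CPM in bulk). The part of cell composition and of digestion in the receptor values was not tested.

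**Figure D2:**
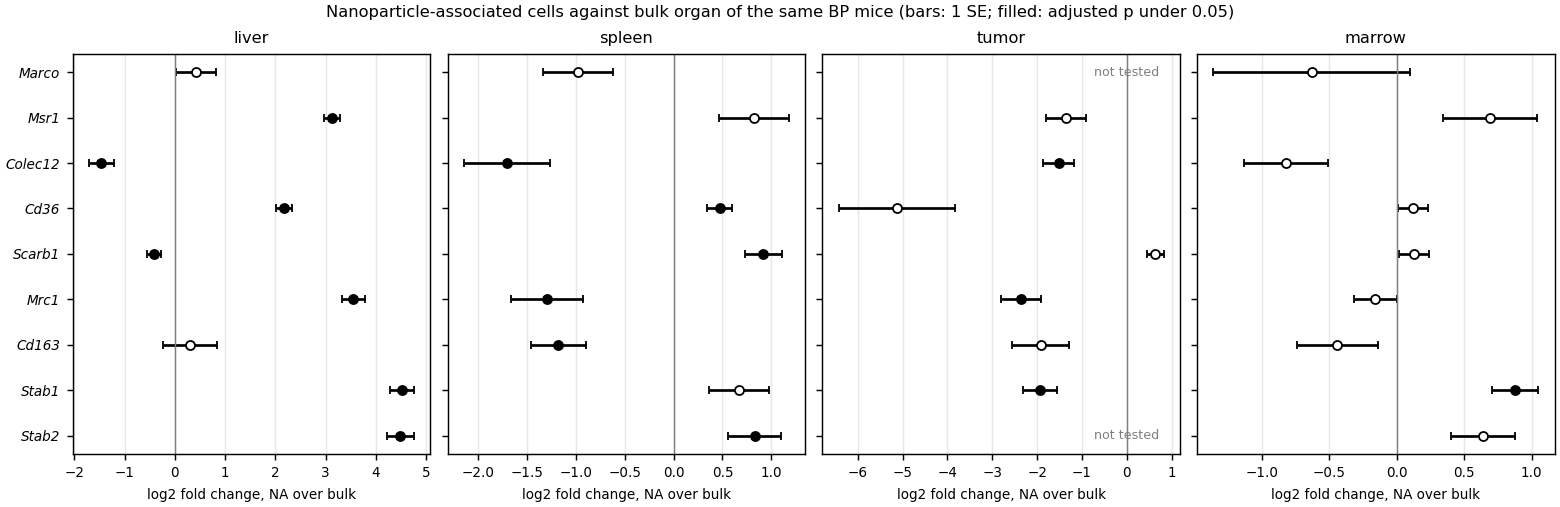
Log2 fold change of each receptor, nanoparticle-associated cells over bulk tissue of the same BP mice, in liver, spleen, tumor and marrow. Bars are 1 SE, filled points have an adjusted p under 0.05, and each panel has its own scale. Stab1 and Stab2 are at 4.52 and 4.49 in liver, and Mrc1 is at 3.55 in liver, -1.30 in spleen and -2.36 in tumor.

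**Figure D3:**
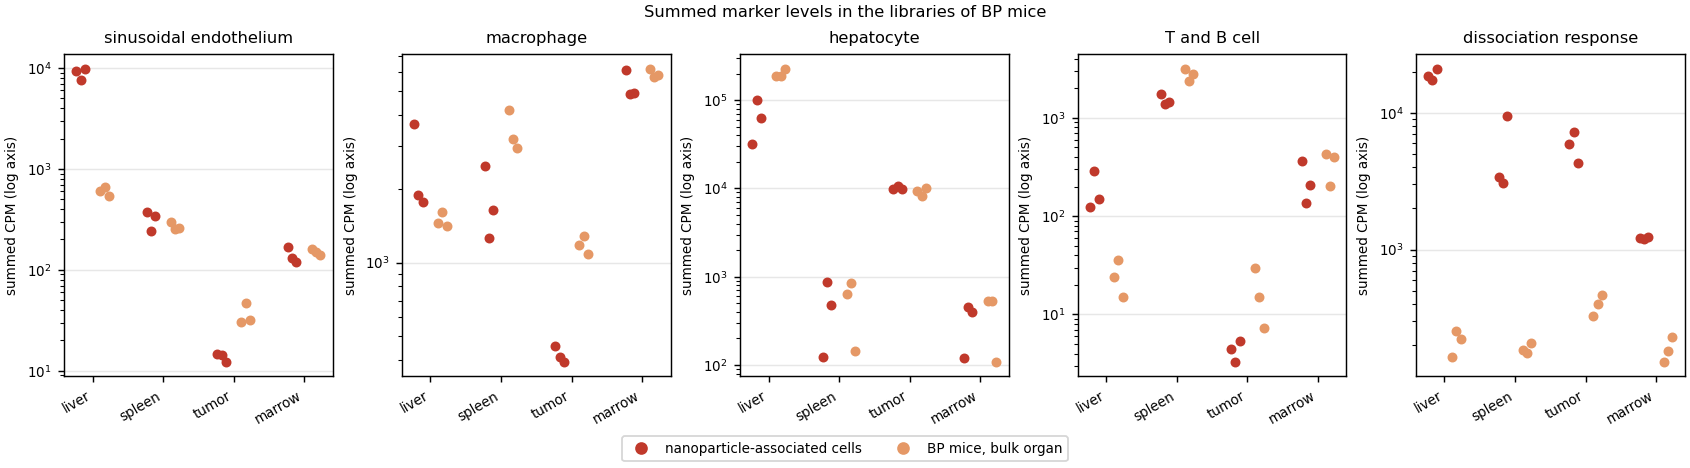
Summed CPM of 5 marker lists on log axes, in nanoparticle-associated cells (red) and bulk tissue (orange) of the BP mice, 1 point per library. Sinusoidal endothelium markers reach 7636 to 9821 CPM in NA liver, and the dissociation response genes are higher in NA than in bulk libraries in each of the 4 organs.

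Spleen showed another pattern, in which Mrc1, Cd163 and Colec12 fell in the sorted cells and Scarb1, Cd36 and Stab2 rose. Marco had 133, 49.6 and 113 CPM in NA spleen, against 246, 184 and 170 CPM in bulk spleen of the same mice, groups that did not overlap (-0.98 ± 0.36, adjusted p = 0.0665). With the mouse as a block Marco was called (-1.08, adjusted p = 0.00883), as it was by DESeq2 (-0.94, adjusted p = 0.0321). Mrc1 fell, with 39.9, 16.9 and 21.9 CPM in NA spleen and 82.0, 72.7 and 44.6 CPM in bulk (-1.30 ± 0.37, adjusted p = 0.0289), as did Cd163, with 1.68, 1.26 and 1.15 CPM against 3.06, 3.53 and 2.93 CPM (-1.18 ± 0.28, adjusted p = 0.0152). Colec12 fell as well, with 15.9, 4.37 and 12.4 CPM in NA spleen and 44.7, 31.4 and 34.7 CPM in bulk (-1.71 ± 0.44, adjusted p = 0.0197). In these 4 genes mouse 2 was lowest or next to lowest among the NA libraries, and every NA value was below every bulk value. NA and bulk spleen did not overlap in 55.9% of all genes tested, and in 7 of the 9 receptors.

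The rise was steadiest in Scarb1. Scarb1 had 76.0, 52.4 and 76.4 CPM in NA spleen and 35.6, 42.6 and 32.7 CPM in bulk (0.92 ± 0.19, adjusted p = 0.00983). Cd36 had 214, 196 and 184 CPM in NA spleen and 155, 153 and 131 CPM in bulk (0.47 ± 0.13, adjusted p = 0.0245). Stab2 had 80.0, 43.6 and 60.8 CPM in NA spleen and 46.6, 30.8 and 29.6 CPM in bulk (0.83 ± 0.27, adjusted p = 0.0472), and here the NA spleen of mouse 2 fell below the bulk spleen of mouse 1. Msr1 (0.82 ± 0.36, adjusted p = 0.105) and Stab1 (0.67 ± 0.31, adjusted p = 0.122) were not called, and were called with the mouse as a block (0.73, adjusted p = 0.0285, and 0.64, adjusted p = 0.0201).

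In spleen 6 of 9 receptors were thus called, where 42.2% of 15026 genes were called, 20.2% higher and 22.0% lower. With the block 9 were called, where 8122 of the 15026 genes were. Scarb1 alone kept its call in every alternative. Leaving out NA mouse 3, bulk mouse 2 or bulk mouse 3 left 2, 2 and 3 receptors called, and bulk mouse 1 left 4. Colec12 was lost without NA mouse 3 (adjusted p = 0.0603), bulk mouse 1 (0.0547) or bulk mouse 3 (0.0510), Cd36 without bulk mouse 2 (0.0635) or bulk mouse 3 (0.0733), and Cd163 without NA mouse 3 (0.0638) or bulk mouse 2 (0.0616). Mrc1 was lost without NA mouse 2 (0.0642), NA mouse 3 (0.103), bulk mouse 1 (0.0696) or bulk mouse 2 (0.0814), and Stab2 without NA mouse 1 (0.0977), NA mouse 3 (0.107), bulk mouse 2 (0.146) or bulk mouse 3 (0.143). Marco was called without NA mouse 1 (0.0360) or NA mouse 2 (0.0480), and Stab1 without NA mouse 2 (0.0416). On library totals Cd36 (0.30, adjusted p = 0.172) and Stab2 (0.66, adjusted p = 0.149) were not called, the median of all genes moved by -0.17, and 35.3% of called genes were higher in place of 47.9%.

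The macrophage markers were lower in the same libraries. None of the 12 was higher in NA spleen and 7 were called lower (median -0.94), with sums of 1262 to 2477 CPM in NA spleen and 2931 to 4201 CPM in bulk. The Kupffer and red pulp markers summed to 229 to 617 CPM in NA spleen and 936 to 1382 CPM in bulk. Neutrophil markers summed to 2235 to 4499 CPM in NA spleen and 799 to 2551 CPM in bulk, with 4 of 10 called higher, and 6 of 10 T and B cell markers were called lower. The dissociation response genes were called higher, 10 of 10 (3076 to 9529 CPM in NA spleen and 176 to 206 CPM in bulk). What part these take in the spleen values was not tested.

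In the mammary tumor Stab1, Mrc1 and Colec12 fell in the sorted cells. Stab1 had 10.2, 8.27 and 14.7 CPM in NA tumor, against 49.8, 24.4 and 52.5 CPM in bulk tumor (-1.93 ± 0.38, adjusted p = 0.0328). Mrc1 had 6.95, 8.02 and 6.65 CPM in NA tumor, against 48.6, 45.3 and 16.6 CPM in bulk (-2.36 ± 0.44, adjusted p = 0.0303). Colec12 had 5.13, 3.36 and 6.65 CPM in NA tumor, against 16.6, 13.5 and 13.4 CPM in bulk (-1.52 ± 0.35, adjusted p = 0.0438; 0.0589 with the mouse as a block). The groups were apart in all 7 receptors tested, and over all genes tested they were apart in 38.3%.

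Scarb1 was the only receptor with a higher mean among the 7, with 126, 111 and 129 CPM in NA tumor and 73.3, 89.8 and 75.3 CPM in bulk (0.63 ± 0.19, adjusted p = 0.0752). Cd36 had 13.5, 5.69 and 12.9 CPM in NA tumor, against 957, 77.7 and 50.4 CPM in bulk (-5.13 ± 1.3, adjusted p = 0.0529). Msr1 (-1.35 ± 0.45, adjusted p = 0.0953) and Cd163 (-1.92 ± 0.63, adjusted p = 0.0916) lay lower without a call. Marco and Stab2 did not pass edgeR's filter on low counts: the NA tumors held 6, 2 and 2 counts of Marco and 5, 6 and 3 counts of Stab2. Stab2 had no count in the bulk tumor of BP mouse 2, which allows up to 0.179 CPM there (3 counts, counting error only).

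Of the receptors 3 of 7 were called, all lower, where 9.04% of 14615 genes were called and 3.17% were lower. DESeq2, which ran without that filter, called 7 of 9, where it called 3183 of 25988 genes: besides the 3 these were Msr1 (-1.34, adjusted p = 0.0311), Cd163 (-1.89, adjusted p = 0.0190) and Marco (adjusted p = 0.0114), all lower, and Scarb1, which was higher (0.64, adjusted p = 0.0467). The replicate block called 2, where 625 of 14615 genes were called, and edgeR without the filter added Cd36 (-5.06, adjusted p = 0.0182). Leaving out any of the NA tumors ended all 3 calls while the fold changes stayed between -2.44 and -2.27 for Mrc1, -2.16 and -1.75 for Stab1 and -1.74 and -1.29 for Colec12, and over all genes 20, 51 and 211 calls were left without NA mouse 1, 2 and 3, in place of 1321. The receptors had adjusted p of 0.145, 0.121 and 0.0967 for Mrc1 without NA mouse 1, 2 and 3, of 0.149, 0.126 and 0.0672 for Stab1, and of 0.173, 0.136 and 0.0866 for Colec12. Without bulk mouse 1, Mrc1 (0.0617), Stab1 (0.0665) and Colec12 (0.0791) were lost and Cd36 was called (-2.58, adjusted p = 0.0430). Without bulk mouse 2, Mrc1 (0.0646) and Colec12 (0.0705) were lost, and without bulk mouse 3 Cd36 (0.0327), Cd163 (0.0409) and Marco (0.0466) were called. On library totals Colec12 was lost (0.0552), Cd36 was called (-4.89, adjusted p = 0.0440) and 48.0% of called genes were higher in place of 65.0%.

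Macrophage markers were lower in NA tumor, with 9 of 12 called lower and sums of 394 to 456 CPM in NA tumor and 1081 to 1290 CPM in bulk. Adipocyte markers were lower as well, 8 of 9 tested, with sums of 30.1 to 49.7 CPM in NA tumor and 399 to 15993 CPM in bulk. Mammary epithelium markers summed to 13408 to 15194 CPM in NA tumor and 9543 to 23559 CPM in bulk, with 1 of 9 called higher. Of the dissociation response genes 9 of 10 were called higher. The bulk tumor of BP mouse 1 carried fat (15993 CPM of adipocyte markers) and that of BP mouse 2 skeletal muscle (Acta1 at 1165 CPM and at most 1.72 CPM in any other tumor library), and their part in the receptor values was not tested beyond the values without them.

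In bone marrow the sorted cells and the bulk tissue were close. Stab1 had 11.3, 13.1 and 13.7 CPM in NA marrow, against 6.66, 8.0 and 6.37 CPM in bulk marrow, and was the only receptor called (0.88 ± 0.17, adjusted p = 0.0210). Of all genes 7.69% were called, and 2719 genes in place of 1044 with the mouse as a block, which left Stab1 as the 1 receptor called (adjusted p = 0.0144). The Stab1 call was lost without NA mouse 2 (adjusted p = 0.0860), NA mouse 3 (0.0693), bulk mouse 1 (0.0901), bulk mouse 2 (0.0645) or bulk mouse 3 (0.0772). Stab2 had 9.44, 14.1 and 10.6 CPM in NA marrow and 8.30, 8.53 and 5.37 CPM in bulk, apart and not called (0.64 ± 0.24, adjusted p = 0.145). NA and bulk marrow were apart in 30.4% of all genes tested, and in 3 of the 9 receptors, Stab1, Stab2 and Colec12. Colec12 was lower in NA marrow (2.63 to 3.79 CPM) than in bulk (4.37 to 8.87 CPM) and was not called. Cd36, the most abundant of the 9 there, had 86.3, 94.2 and 101 CPM in NA marrow and 87.6, 84.8 and 90.9 CPM in bulk (0.12 ± 0.11, adjusted p = 0.550). Macrophage markers summed to 4895 to 6117 CPM in NA marrow and 5701 to 6190 CPM in bulk.

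The single NA library from lymph node has no replicate and was set beside the ranges of the bulk nodes. Marco was at 80.7 CPM in it, within the 71.5 to 117 CPM of BP nodes and the 60.5 to 91.9 CPM of PBS nodes. Colec12 (9.28 CPM), Mrc1 (11.4 CPM), Stab2 (1.84 CPM) and Cd163 (0.0875 CPM, 1 count) lay below all bulk nodes. Cd36 was at 21.1 CPM, equal to the lowest BP node at this precision and below the PBS nodes, which had 137 CPM or more. Msr1, Scarb1 and Stab1 lay within the range of the PBS nodes, and none of the 9 lay above it.

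Among NA cells of the 4 replicated organs, liver stood apart. All 9 receptors were called higher in NA liver than in the mean of NA spleen, tumor and marrow (58.4% of genes called, 30.6% higher), with Stab2 at 7.97 ± 0.23 (adjusted p = 4.89e-10), Stab1 at 6.91 ± 0.23 (8.67e-10), Mrc1 at 6.15 ± 0.23 (1.60e-09), Marco at 5.80 ± 0.45 (6.46e-07) and Msr1 at 5.33 ± 0.27 (2.16e-08). The order of levels was NA liver, spleen, marrow, tumor for Cd36 and Stab2, with no overlap between neighbours. For Marco, NA liver and NA spleen overlapped at means of 131 and 98.5 CPM, and NA marrow and NA tumor were at 0.676 and 0.186 CPM. On library totals, where the median of all genes moved by -1.56, Scarb1 in NA liver turned from 0.99 ± 0.13 (adjusted p = 3.81e-05) to -0.58 (adjusted p = 0.0194), Colec12 lost its call (0.51, adjusted p = 0.249), and 14.3% of called genes were higher in place of 52.3%.

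In NA spleen 8 receptors were called against the other NA cells (53.7% of genes), with Marco (5.24 ± 0.45, adjusted p = 2.99e-06), Stab2 (1.91 ± 0.22) and Cd36 (1.42 ± 0.20) higher and Msr1, Scarb1, Mrc1, Cd163 and Stab1 lower. On library totals, which moved the median by 0.57 and the share of higher calls to 82.8% in place of 54.9%, Msr1, Scarb1, Mrc1 and Cd163 lost their calls there, with adjusted p of 0.126, 0.403, 0.0592 and 0.0637, and Colec12 was called (1.18, adjusted p = 0.0161). Msr1 also lost its call without mouse 3 (0.0638), and Colec12 was called without mouse 2 (0.86, adjusted p = 0.0344). In NA tumor 8 were called (65.3% of genes), 7 lower and Scarb1 higher (0.33 ± 0.13, adjusted p = 0.0449, lost by DESeq2 at 0.0608, with its size factors in edgeR at 0.0689, with no filter at 0.0772 and without mouse 1 at 0.201 or mouse 3 at 0.0967). Colec12 was called lower there with the mouse as a block (0.0301), by DESeq2 (0.0273), with its size factors (0.0457), with no filter (0.0469) and without mouse 2 (0.0428). The Cd163 call in NA tumor (-1.20 ± 0.50, adjusted p = 0.0497) was lost without mouse 1 (0.136) or mouse 3 (0.217) and on library totals (-0.70, adjusted p = 0.272), which moved the median by 0.58 and the share of higher calls to 71.9% in place of 51.5%. In NA marrow 6 were called, all lower (58.4% of genes, 29.8% lower), and Scarb1 lost its call without mouse 1 (0.0743) or mouse 3 (0.0910) and Mrc1 without mouse 3 (0.0780). On library totals, which moved the median by 0.41 and the share of higher calls to 67.8% in place of 49.0%, Scarb1 (-0.12, adjusted p = 0.617) and Mrc1 (-0.63, adjusted p = 0.0901) lost their calls in NA marrow.

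Whether the step from bulk to NA differed between organs was tested in 1 fit over the 24 libraries of BP mice. In liver 7 receptors had a step that differed from the mean step of the other organs, all but Scarb1 upward (53.7% of 17281 genes were called, 29.4% upward), in tumor 5, all downward (23.8%, 15.4% downward), in spleen 2 (18.2%) and in marrow 0 (15.0%). Mrc1 was the receptor whose step differed most in liver, by 4.74 ± 0.43 (adjusted p = 3.21e-08), and it differed by -1.60 ± 0.40 in spleen (adjusted p = 0.00880) and by -3.06 ± 0.41 in tumor (adjusted p = 4.09e-05). Stab1 differed by 4.56 ± 0.36 in liver (adjusted p = 6.58e-09) and by -3.95 ± 0.35 in tumor (adjusted p = 8.43e-07). The spleen call of Mrc1 was lost without mouse 2 (0.130) or mouse 3 (0.0621) and that of Scarb1 without mouse 1 (0.0952) or mouse 3 (0.125). Marco's own step from bulk to NA in liver was not called. Marco's difference in liver (2.07 ± 0.84, adjusted p = 0.0447) was lost without mouse 1, 2 or 3, at 0.253, 0.0912 and 0.0839, and so was its difference in tumor (-3.26 ± 1.2, adjusted p = 0.0479), at 0.599, 0.0930 and 0.0944. On library totals neither was called (1.53, adjusted p = 0.137, in liver and -2.89, adjusted p = 0.0781, in tumor). Without mouse 2, Stab2 was called in tumor (-2.52, adjusted p = 0.0377).

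Per kilobase of exon, which allows genes to be compared, the mix of receptors differed between NA and bulk liver. Of the summed level of the 9 in NA liver (786 CPM per kb), Mrc1 took 25.0%, Stab1 21.7%, Stab2 20.6% and Marco 8.65%. Marco's share was 13.6% in NA mouse 1 and 7.18% and 4.28% in NA mice 2 and 3. Of the sum in bulk liver of the same mice (168 CPM per kb), Marco took 33.7%, Scarb1 17.9%, Cd36 16.8% and Mrc1 11.1%, and each stabilin took under 5%. In NA spleen Cd36 (42.1%) and Marco (39.1%) led a sum of 131 CPM per kb. Marco was ahead of Cd36 in mouse 1 (43.0% and 37.0%) and mouse 3 (43.7% and 38.2%), and behind it in mouse 2 (26.5% and 55.9%). In NA marrow Cd36 led (55.6% of 47.1 CPM per kb), in NA tumor Scarb1 (68.2% of 21.1 CPM per kb), and in the NA lymph node library Marco (73.5% of 57.0 CPM per kb). These are shares of transcript level, not of protein or of uptake.

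Other particle uptake genes were counted from a list of 45. In NA liver 25 of 40 tested were called higher and 7 lower than in bulk liver, with a median of 1.44 where all genes had 0.01. The largest were Olr1, a lectin-like receptor for oxidised lipoprotein (6.01 ± 0.67), Clec4e, a C-type lectin of activated myeloid cells (5.89 ± 0.38), Cd14, the lipopolysaccharide co-receptor (5.72 ± 0.33), and Scara3 (4.30 ± 0.41). The lowest were Vldlr (-2.79 ± 0.31), Lrp1 (-2.07 ± 0.21) and the hepatocyte asialoglycoprotein receptor subunits Asgr2 (-1.98 ± 0.37) and Asgr1 (-1.81 ± 0.28). Olr1, Clec4e and Cd14 were also called higher in NA spleen, where 8 of 43 were higher and 8 lower, and in NA marrow, where 5 of 33 were higher and 1 lower. In NA tumor 2 of 39 were higher and 2 lower, Clec4e among the higher (3.55 ± 0.46).

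Injection of BP did not bring any receptor past the threshold in bulk tissue. In liver, spleen, tumor, marrow, lymph node and lung 0 of the 9 were called between BP and PBS mice by edgeR's test, and 0.0235% of all genes were called in liver (3 of 12740) and none in the other 5 organs. At an unadjusted p under 0.05 edgeR had 3.56% of genes in liver, 0.711% in spleen, 5.96% in tumor, 1.32% in marrow, 3.61% in lymph node and 0.872% in lung, and DESeq2 called 34, 0, 182, 3, 12 and 0 genes in those organs. Of the 45 other uptake genes listed, none of those tested was called in any organ. A p above the threshold does not show that levels were alike with 3 mice a group.

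Marco in liver came nearest. BP livers had 92.3, 121 and 113 CPM and PBS livers 29.2, 35.0 and 61.0 CPM, on library totals 56.9, 75.5 and 65.5 CPM against 16.1, 20.2 and 36.9 CPM. The groups did not overlap, which was so for 8.40% of all genes tested, and BP livers reached 2.60 times the PBS level (log2 fold change 1.38 ± 0.24, adjusted p = 0.200). DESeq2 called it (adjusted p = 1.09e-05), as did edgeR without the filter on low counts (3.92e-05) and without PBS mouse 3 (1.76, adjusted p = 0.00682), the PBS liver with the most Marco. Over the alternatives the adjusted p ran from 1.09e-05 to 0.920. Lyz2, the macrophage lysozyme, was called in the same comparison, at 445 ± 15.9 CPM in BP liver and 163 ± 8.09 CPM in PBS liver (SD, n = 3 each), as was Vcam1 of the Kupffer and red pulp list, at 77.4 ± 16.2 CPM in BP liver and 28.9 ± 3.36 CPM in PBS liver. The 10 genes of that list summed to 2240 to 2996 CPM in BP livers and 2130 to 2451 CPM in PBS livers, ranges that overlap. The 12 macrophage markers had positive fold changes throughout (median 0.30) and summed to 1406 to 1611 CPM in BP livers and 923 to 1093 CPM in PBS livers, and their part in the Marco value was not tested. The other receptors of liver had fold changes between -0.39 and 0.20, with Stab1 at 0.01 ± 0.13, Stab2 at -0.20 ± 0.16 and Cd163 at -0.39 ± 0.23.

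**Figure D4:**
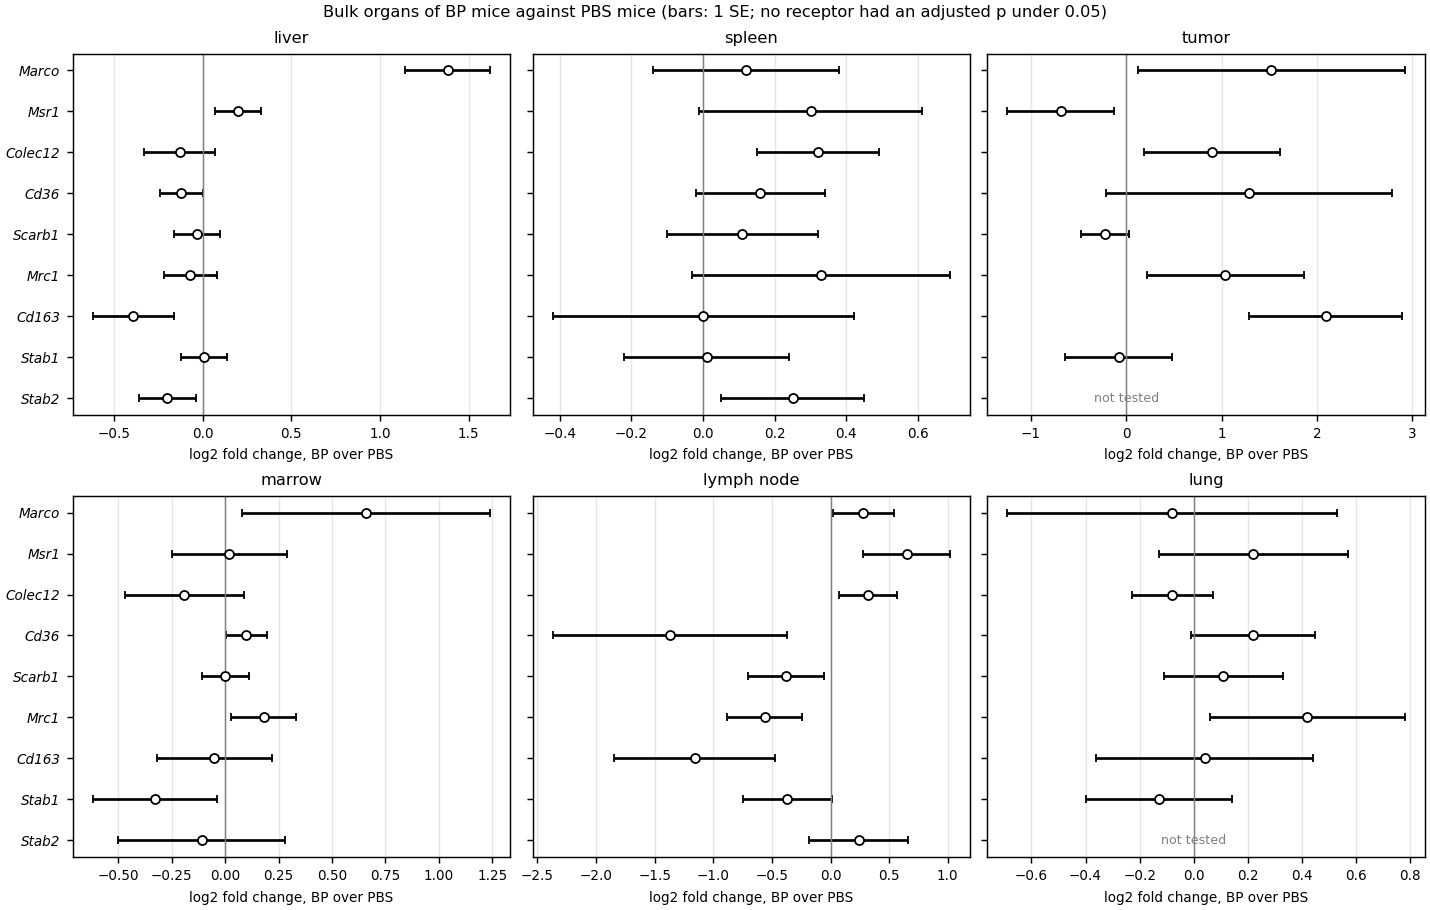
Log2 fold change of each receptor, bulk organs of BP mice over those of PBS mice, with bars of 1 SE and a separate scale in each panel. No point has an adjusted p under 0.05. Marco in liver, at 1.38, lies farthest from 0 relative to its SE of 0.24.

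In the tumor the receptors were spread widely between mice of 1 group. Cd163 had 10.7, 8.10 and 2.85 CPM in BP tumors and 3.54, 0.808 and 0.938 CPM in PBS tumors (2.09 ± 0.80, adjusted p = 0.797). Mrc1 had 48.6, 45.3 and 16.6 CPM in BP tumors and 41.8, 5.28 and 8.84 CPM in PBS tumors (1.04 ± 0.82, adjusted p = 0.827). Both genes overlapped between the groups through the tumor of PBS mouse 1. In a fit over all 36 bulk libraries the BP change of Cd163 in tumor differed from its mean change in the other organs by 2.33 ± 0.61 (adjusted p = 0.0262, 4.06% of 18613 genes called), and the difference was not called without the mice numbered 2 (1.75, adjusted p = 0.451). Without the mice numbered 1, Colec12 (2.04, adjusted p = 0.00716) and Mrc1 (2.32, adjusted p = 0.0216) were called, and without those numbered 3, Cd36 (4.98, adjusted p = 0.0133). In the same test 0 receptors and 0 genes were called by edgeR for the other organs, where 1.99% of genes in liver, 1.26% in lung, 7.77% in lymph node, 1.12% in marrow and 1.13% in spleen had an unadjusted p under 0.05.

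Cd36 in tumor and lymph node varied widely between mice of 1 treatment, as did the adipocyte markers. BP tumors had 957, 77.7 and 50.4 CPM of Cd36 and PBS tumors 18.4, 27.3 and 437 CPM, and adipocyte markers summed to 15993, 1479 and 399 CPM in the same BP tumors and to 107, 24.9 and 295 CPM in the PBS tumors. BP nodes had 90.8, 21.1 and 400 CPM of Cd36 and PBS nodes 137, 718 and 463 CPM, beside adipocyte sums of 1529, 253 and 6917 CPM in the BP nodes and 2172, 15571 and 6887 CPM in the PBS nodes. The BP tumors had the same order in both values. The PBS tumors did not, since mouse 1 had more adipocyte RNA and less Cd36 than mouse 2, and mouse 3 had 437 CPM of Cd36 at 295 CPM of adipocyte markers. In the nodes the order was the same but for BP mouse 3 and PBS mouse 3, whose adipocyte sums were nearly equal. The fold changes of Cd36 were 1.29 ± 1.5 in tumor (adjusted p = 0.871) and -1.37 ± 1.0 in lymph node (adjusted p = 0.866). The part of adipocyte RNA in these values was not tested.

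**Figure D5:**
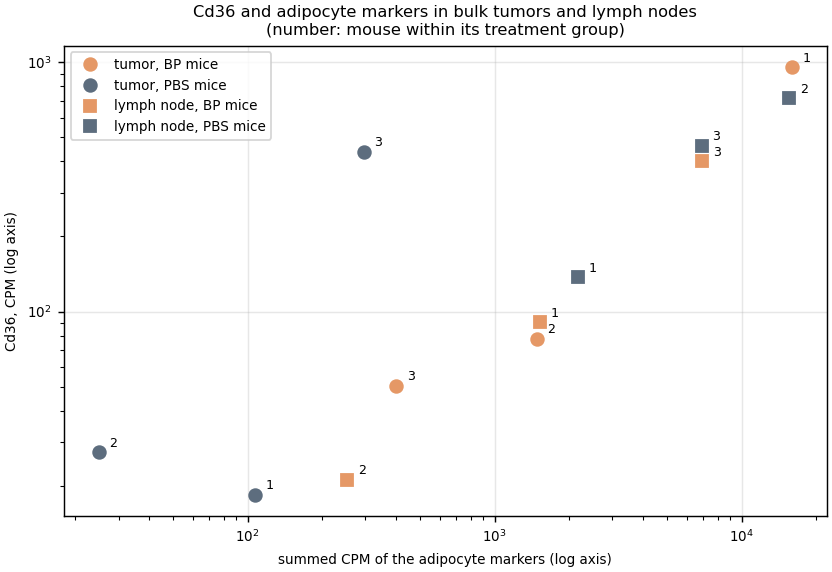
Cd36 level against the summed level of 10 adipocyte markers, both in CPM on log axes, in the 12 bulk tumors (circles) and lymph nodes (squares) of BP mice (orange) and PBS mice (grey). Numbers are the mice within each treatment. The tumor of PBS mouse 3 has the most Cd36 of the PBS tumors, at 437 CPM of Cd36 and 295 CPM of adipocyte markers.

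Genes whose mean levels followed a receptor most closely across the 17 groups were found by Pearson's r of log2(CPM + 1) over 15761 genes, as a description over groups that share mice and mix NA with bulk. Marco was closest to Timd4 (0.926), Siglec1 (0.922) and Gbp2b (0.920), of which Siglec1 is the sialoadhesin of marginal zone and lymph node macrophages. Stab2 was closest to Dnase1l3 (0.924), Fcgr2b (0.919) and Exoc3l2 (0.911), and Stab1 to Dysf (0.957), Tmem106a (0.939) and Rarb (0.935). Mrc1 was closest to Plpp1 (0.941), Fam124a (0.939) and Mertk (0.929), and Msr1 to Tmem132e (0.940), Oit3 (0.908) and Exoc3l2 (0.907). Colec12 was closest to Rarres2 (0.947), Clec2d (0.941) and Olfml1 (0.935), Cd36 to Dand5 (0.934), P2ry6 (0.855) and Ckb (0.821), Scarb1 to Grn (0.969), Canx (0.967) and Hpn (0.965), and Cd163 to Orm1 (0.916), Vnn3 (0.915) and Ugt1a9 (0.905). Among the members, Mrc1 and Stab1 were the most alike (0.84), and Marco and Msr1 had 0.29.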

How the data were processed

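RNA was extracted with a Qiagen kit, DNAse-treated and sequenced as Illumina libraries, per the labels' protocols. Values are RSEM expected counts for 55487 genes in 49 libraries, as deposited by the authors; the submitters' processing notes list RSEM 1.3.1, STAR 2.7.9a and build mm10; cutadapt 3.5 and FastQC 0.11.9 are listed as well. Between 4.64% and 7.92% of the values of a library were not whole. RSEM divides reads shared by similar genes, and the strand setting is not given in the sources used here.

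The rounded values went into edgeR 4.0.16 under R 4.3.3 (TMM, filterByExpr with a minimum count of 10, quasi-likelihood F test, two-sided, Benjamini-Hochberg over all genes tested). The SE of a log2 fold change is its size over the square root of F. Each BP and PBS comparison, and each NA and bulk comparison, used its own 6 libraries; organs were compared within PBS bulk or within NA, and steps in 1 fit. The scripts were tested on simulated counts. Alternatives were DESeq2 1.42.0, its size factors in edgeR, library totals, no filter, a replicate block and leaving out each replicate. NA and bulk libraries of a number come from the same mouse (same-number correlation of deviations -0.09 to 0.70). A count of 0 allows a level of up to 0.11 to 0.765 CPM, by library (3 counts), for counting error only.

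All 9 receptors were taken into every comparison where they passed the filter, and not each uncalled receptor is printed with its values. Also named are the 3 genes most like each and at most the 4 largest other uptake genes a direction. Members and lists were chosen with earlier results of these data known. Of the listed markers 2 were not found in the table.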

Additional observations from a re-analysis of the deposited data

Results flagged for a closer look

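In 15 results the change of a receptor in 1 organ differed from its mean change in the other organs by a test of that difference (edgeR interaction, adjusted p under 0.05). In liver the step from bulk to NA differed upward for Marco (2.07), Msr1 (2.97), Cd36 (3.57), Mrc1 (4.74), Stab1 (4.56) and Stab2 (3.78) and downward for Scarb1 (-1.07). In spleen it differed upward for Scarb1 (0.86) and downward for Mrc1 (-1.60). In tumor it differed downward for Marco (-3.26), Msr1 (-2.88), Cd36 (-5.99), Mrc1 (-3.06) and Stab1 (-3.95). These organs were all digested and sorted, so a step of equal size in all of them cancels. The dissociation response genes did not step equally: their median sums were 18744 CPM in NA liver and 220 CPM in bulk. They were 3373 and 185 CPM in spleen, 5896 and 400 CPM in tumor and 1208 and 180 CPM in marrow. A digestion that acts unevenly between organs cannot be told apart from the sort. Cd36 in bulk tumor was 957 CPM in BP mouse 1, whose tumor carried fat, and 77.7 and 50.4 CPM in BP mice 2 and 3. Without that library the fall of Cd36 from bulk to NA tumor was smaller, at -2.58. The part of fat in the Cd36 value was not tested further. The Marco values in liver and tumor were not called on library totals (adjusted p = 0.137 and 0.0781) or without any of the mice, and in tumor the NA libraries held 6, 2 and 2 counts of Marco. Marco itself was not called between NA and bulk liver (means of 131 and 109 CPM, and -0.23 on library totals). The mean step it was set against includes tumor, and also spleen, where Marco averaged 98.5 CPM in NA and 200 CPM in bulk. The change of Cd163 between BP and PBS mice was larger in tumor than in the other organs (2.33), and its tumor levels went with the macrophage sums only in part: 1177, 1290 and 1081 CPM in BP tumors beside 10.7, 8.10 and 2.85 CPM of Cd163, and 1532, 389 and 825 CPM in PBS tumors beside 3.54, 0.808 and 0.938 CPM.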

How the results depend on the processing

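Of 96 called receptor results 58 kept call and direction under every alternative run, 37 lost the call under at least 1, and 1 turned. Library totals ended 19 of 96, leaving out a replicate 31, the replicate block 2, and DESeq2 1 of 81. The result that turned was Scarb1 in NA liver against other NA organs on library totals (-0.58, against 0.99), and uncalled Cd163 in NA against bulk liver became -0.86 and called without NA mouse 1 (-0.86 to 0.68 leaving out each replicate). Of 170 uncalled receptor results 71 changed sign under at least 1 alternative that left them uncalled, so no direction is read from these. Receptors called in BP against PBS liver were 1 by DESeq2 and 1 with no filter, against 0 (0 to 1 leaving out a replicate). NA spleen against other NA organs had 5 on library totals, against 8, and PBS spleen 3, against 5 (lowest 3 leaving out a replicate). NA against bulk tumor had 7 by DESeq2, against 3. Leaving out each replicate gave 0 to 6 in NA tumor, 2 to 7 in NA spleen, 0 to 1 in NA marrow, 0 to 1 for the spleen step and 0 to 3 for the BP change in tumor. Over all genes, BP against PBS had 34 calls by DESeq2 and 49 with no filter in liver, against 3, and 182 by DESeq2 in tumor, against 0. NA against bulk tumor had 3183 by DESeq2, 800 on library totals and 625 with the replicate block, against 1321. BP and PBS mice share only a number (r from -0.25 to 0.49), and the replicate block left 0 receptors called between them. Beyond the values printed beside results, the block changed no other call between NA and bulk. Depth limits the lowest levels: Marco and Stab2 in NA against bulk tumor and Stab2 in BP against PBS tumor and lung had too few counts to pass edgeR's filter.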
